A study of Mus musculus with 12 samples.

Results

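The 90 genes described here are the cytosolic ribosomal protein genes of a mouse count table with 55291 gene rows. They were chosen by name only, as rows whose symbol is Rpl, Rps, or Rplp followed by a number, together with Rpsa, and no measured value entered the choice. Of the 90, 77 are core genes, 46 for the large and 31 for the small subunit. The other 13 are paralogs or numbered copies, some of them listed as pseudogenes, and are described apart. The RNA came from LK cells, the Lin-cKit+ fraction of bone marrow that lacks markers of mature blood cells, carries the receptor cKit, and holds stem and progenitor cells. One library was made from each of 12 C57BL/6 mice, 3 of each of 4 genotypes, all 12 months old: WT, Kdm6bΔ/+, Asxl1Y588XTg, and Asxl1Y588XTg Kdm6bΔ/+. In both Kdm6bΔ/+ genotypes 1 allele of Kdm6b, which encodes an H3K27 demethylase, was deleted by Mx1Cre after injection of pI:pC, which induces interferon. The paper's methods do not state whether the WT and Asxl1Y588XTg mice sequenced here carried Mx1Cre or received pI:pC. Asxl1Y588XTg mice carry a transgene for a truncated ASXL1 protein and were preleukemic when sampled, and the promoter that drives the transgene is not given in the sources used here.

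A ribosome is built from a small subunit, which reads the mRNA, and a large subunit, which joins amino acids, and each holds its own set of ribosomal proteins around ribosomal RNA. Growing cells, among them blood progenitors, spend much of their transcription on these genes, and most of the genes have many processed pseudogenes, copies of the mRNA inserted elsewhere in the genome. In humans, loss of 1 copy of several of them causes Diamond-Blackfan anemia, a failure of red cell production.

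No core ribosomal protein gene passed the threshold between genotypes. Of the 76 core genes that could be tested, 0 passed an adjusted p of 0.05 by edgeR's quasi-likelihood test in any of 5 comparisons or in the interaction. The paralog Rps4l was the exception among the 82 members tested. It was lower in both genotypes with the Asxl1Y588X transgene than in WT, with log2 fold changes of −1.82 and −1.60, and no change was detected in Kdm6bΔ/+. Apart from the genotypes, a few core genes, Rps2 first, lay at 2 separate levels within a genotype.

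The libraries held 14451522 to 23482563 counts, and the genes tested held at least 99.8% of the counts of each. Kit had a mean of 6100 normalized counts in WT, Cd34 was at 2525 ± 100.9 (SD, n = 3) and Mpo at 180500 ± 12780. All 7 LK markers were detected in every genotype, and so were markers of mature cells. The summed count of 6 neutrophil markers was 661700 to 981000 in WT, against 186800 to 213800 for the 7 LK markers. The part of mature cells in these libraries was not tested. Kdm6b was at 2129 ± 252 normalized counts in WT, 1500 ± 141 in Kdm6bΔ/+, 2255 ± 59.8 in Asxl1Y588XTg, and 1812 ± 141 in Asxl1Y588XTg Kdm6bΔ/+. Its log2 fold change in Kdm6bΔ/+ against WT was −0.51 (standard error 0.11, adjusted p = 0.279 by edgeR's quasi-likelihood test). Transcripts of Y-linked genes such as Ddx3y were present in 0 of 3 WT, 2 of 3 Kdm6bΔ/+, 1 of 3 Asxl1Y588XTg, and 3 of 3 Asxl1Y588XTg Kdm6bΔ/+ libraries, so WT and Asxl1Y588XTg Kdm6bΔ/+ also differ throughout in these. In bulk RNA, fewer cells of a type and less RNA per cell cannot be told apart.

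Reads were 50 bases long, and in many ribosomal protein genes every stretch of that length in the coding sequence also occurs in a transcript of another gene. For each gene, the 50-base windows of the coding sequence were searched in all transcripts of other genes in GENCODE vM21. Sequences of 4 genes, shown as examples with many and with no unique windows, begin as follows, with the start codon in capitals.
Rpl4: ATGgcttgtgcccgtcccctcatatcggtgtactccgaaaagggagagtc
Rpl8: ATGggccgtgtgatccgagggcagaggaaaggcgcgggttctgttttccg
Rpl23a: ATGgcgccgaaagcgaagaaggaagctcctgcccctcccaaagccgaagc
Rpl21: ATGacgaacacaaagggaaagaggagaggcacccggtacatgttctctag
In mm10, Rpl4 lies on chromosome 9 from 64173375 to 64178666 and Rpl8 on chromosome 15 from 76904078 to 76906314, both on the forward strand. Rpl23a lies on chromosome 11 from 78180932 to 78183584 on the reverse strand, and Rpl21 on chromosome 5 from 146832890 to 146837032 on the forward strand. The first 50 bases of Rpl4 and of Rpl8 were found in 0 other genes, those of Rpl23a in 7, and those of Rpl21 in 18. Over its whole coding sequence, 79.7% of the windows of Rpl4 and 91.3% of those of Rpl8 were in no other gene, against 0% for both Rpl23a and Rpl21. Of the 77 core genes, 76 shared at least 1 window with a pseudogene, with a median of 9 pseudogenes and up to 120 for Rpl7a. For 29 core genes the share of such unique windows in the coding sequence was 0%. Over the whole transcript the share was 14.3% for Rpl23a, 44.5% for Rpl21, and 1.35% for Rps27.

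The level of a core gene in the table followed this property. Among the 29 genes without a unique coding window, the median was 189.6 normalized counts per kilobase of transcript in WT (7.73 to 3986). Among the 32 genes with a share above 0% and up to 25% it was 1330 (89.1 to 5098), and among the 16 genes above 25% it was 9382 (3197 to 26330). Across the 77 genes, Spearman's rho between the share and the level per kilobase was 0.85. With the share taken over the whole transcript in place of the coding sequence, rho was lower, at 0.57. Both are given as a description, because genes are not independent replicates and because all share the same libraries. Among the highest levels per kilobase in WT were those of Rpl8 (26330), Rpl4 (16810), Rps14 (14610), and Rplp1 (14000), and the lowest were those of Rpl23a (7.73), Rpl24 (18.6), Rps16 (28.4), Rpl19 (46.3), and Rpl5 (59.3). The proteins of both groups are parts of the same particle. Rpl23a had 0 to 14 raw counts per library and was the 1 core gene too low to be tested. How reads with several matching places were counted is not given in the sources used here, and its part in these levels was not tested.

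**Figure D1:**
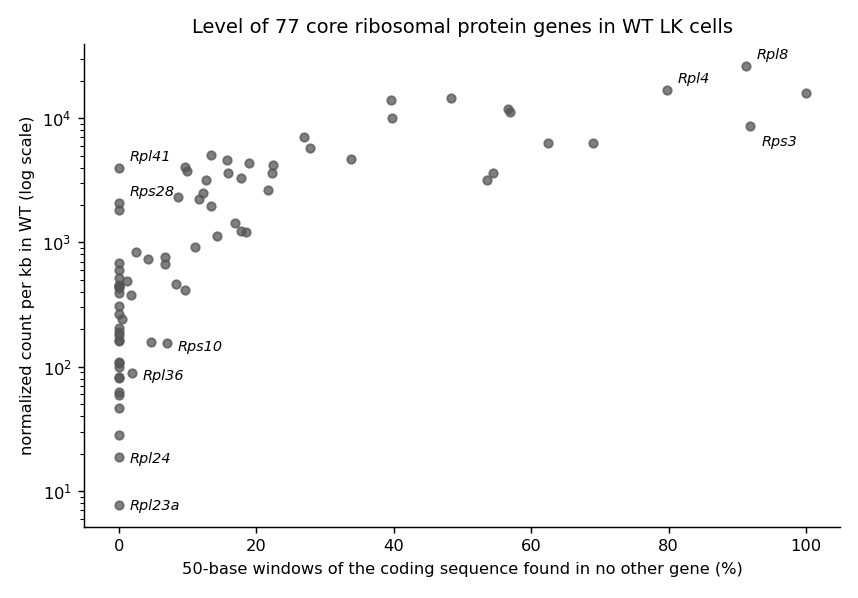
Normalized count per kilobase of transcript in WT LK cells (log scale, mean of 3 libraries) against the share of 50-base coding windows found in no other gene, 1 point for each of the 77 core genes. Genes at 0% reach down to 7.73 (Rpl23a), whereas genes above 25% lie between 3197 and 26330.

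The 5 core genes with the highest counts held 44.4% of all WT counts on core genes. The core genes together took a small share of each library. The share was 1.204%, 1.032%, and 1.236% of all counts in the WT libraries, 1.127%, 1.148%, and 1.129% in Kdm6bΔ/+, 1.208%, 1.186%, and 1.11% in Asxl1Y588XTg, and 1.123%, 1.068%, and 1.06% in Asxl1Y588XTg Kdm6bΔ/+. All 9 mutant libraries lay inside the range of the WT libraries, but the lower end of that range was WT replicate 2 alone, and 8 of the 9, at 1.06% to 1.186%, lay below both other WT libraries. WT replicate 2 also stood apart in cell markers, with a summed count of 981000 on 6 neutrophil markers against 661700 and 717800 in the other WT libraries, and of 1380 on 6 megakaryocyte markers against 2591 and 2646. The part of these cells in the share was not tested. The means were 1.16% ± 0.1099 (SD, n = 3), 1.14% ± 0.0114, 1.17% ± 0.0514, and 1.08% ± 0.0342 in the same order. The exact 95% binomial interval ran from 1.23% to 1.241% in WT replicate 3 and from 1.055% to 1.065% in Asxl1Y588XTg Kdm6bΔ/+ replicate 3, and covers counting error only. The ratio of counts on the small subunit to counts on the large subunit was 0.788 ± 0.0153 in WT, 0.776 ± 0.0137 in Kdm6bΔ/+, 0.787 ± 0.0148 in Asxl1Y588XTg, and 0.760 ± 0.0101 in Asxl1Y588XTg Kdm6bΔ/+.

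**Figure D2:**
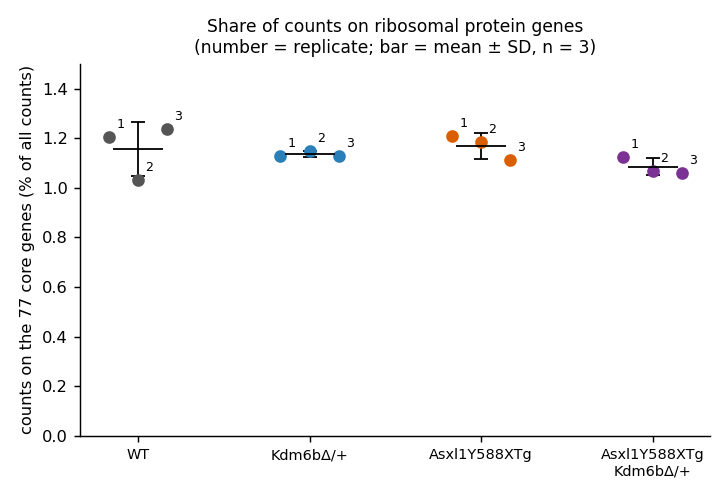
Counts on the 77 core genes as a percentage of all counts, by genotype, with 1 point per library labelled by replicate number and bars for the mean ± SD (n = 3). The points lie between 1.032% and 1.236%, and the 3 Asxl1Y588XTg Kdm6bΔ/+ libraries lie below WT replicates 1 and 3 and above WT replicate 2 (1.032%).

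The first comparison asks what the transgene changed. Between Asxl1Y588XTg and WT, 0 of 76 core genes passed and 0 had an unadjusted p under 0.05, where 1.64% and 9.35% of all 15825 genes tested did. The median log2 fold change of the core genes was −0.02, against −0.01 for all genes. For 54 of the 76 the 95% interval of the fold change lay within 1.5-fold in either direction, as it did for 7854 of all 15825 genes. The groups were separate, with Asxl1Y588XTg lower, for 2 of the 76, where 5.21% of all genes were. The lowest p-values belonged to Rplp2, a stalk protein (log2 fold change 0.14, adjusted p = 0.78 by edgeR), Rpl19 (0.58, adjusted p = 0.801 by edgeR), and Rpl22 (0.10, adjusted p = 0.849 by edgeR) among positive changes, and to Rpl5 (−0.59, adjusted p = 0.545 by edgeR), Rpl31 (−0.31, adjusted p = 0.693 by edgeR), and Rpl12 (−0.24, adjusted p = 0.715 by edgeR) among negative ones.

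The next comparison asks what differed with deletion of 1 Kdm6b allele in mice without the transgene. Between Kdm6bΔ/+ and WT, 0 of 76 core genes passed (0.0948% of all genes did) and 1 had an unadjusted p under 0.05 (3.49% of all genes did), with a median of −0.03 against −0.0032 for all genes. That gene was Rpl5, whose product binds the 5S RNA and, with that of Rpl11, the p53 regulator MDM2. Rpl5 was at 165, 94.0, and 105 normalized counts in WT and at 95.6, 66.5, and 74.8 in Kdm6bΔ/+, so the groups overlapped, and the log2 fold change was −0.63 (standard error 0.28, adjusted p = 1 by edgeR). It was at 73.5, 85.6, and 83.1 in Asxl1Y588XTg and at 90.1, 68.1, and 76.4 in Asxl1Y588XTg Kdm6bΔ/+. The 3 mutant genotypes share the WT libraries as control, and WT replicate 1 was the highest of the 12. Without it, the log2 fold change of Rpl5 was −0.34 in Kdm6bΔ/+, −0.31 in Asxl1Y588XTg, and −0.33 in the double mutant. The groups were separate, with Kdm6bΔ/+ lower, for 2 of 76 core genes (4.8% of all genes). For 52 of the 76 the 95% interval lay within 1.5-fold (8116 of all 15825 genes). The next lowest p-values were those of Rplp2 (0.21), Rps7 (0.34), and Rpl19 (0.62) among positive log2 fold changes and Rpl31 (−0.30) and Rps27a (−0.41), which encodes a fusion with ubiquitin, among negative ones.

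In the double mutant most core genes had a negative log2 fold change. The comparison between Asxl1Y588XTg Kdm6bΔ/+ and Asxl1Y588XTg asks what the deletion did in transgenic cells. Of the core genes, 57 of 76 log2 fold changes were below 0, and of all genes tested 8035 of 15825. Core genes share the same libraries and are not independent of each other. Their median was −0.05 against −0.0043 for all genes, and 0 passed (2.09% of all genes did). With a library left out, this median lay between −0.11 (without Asxl1Y588XTg replicate 3) and −0.02 (without Asxl1Y588XTg replicate 1). The groups were separate with the double mutant lower for 4 (14.1% of all genes). Of the 76, 3 had an unadjusted p under 0.05, all of them lower (15.4% of all genes had one in either direction, 1552 of them lower). The 3 were Rpl35, Rps9, and Rpl10a. Rps9, needed for the accuracy of decoding, was at 9075, 8715, and 7963 normalized counts in Asxl1Y588XTg and at 7439, 7530, and 7575 in the double mutant. Every double-mutant library lay below every Asxl1Y588XTg library, and the log2 fold change was −0.18 (standard error 0.07, adjusted p = 0.268 by edgeR). For 57 of the 76 the 95% interval lay within 1.5-fold (8709 of all 15825 genes). The log2 fold change was −0.29 for Rpl35 (adjusted p = 0.26 by edgeR) and −0.38 for Rpl10a (adjusted p = 0.29 by edgeR). Of the positive changes, those of Rps28 (0.28), Rpl35a (0.07), and Rps7 (0.15) had the lowest p-values.

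Against WT, 60 of 76 core genes in Asxl1Y588XTg Kdm6bΔ/+ had a log2 fold change below 0, as had 7923 of all 15825 genes tested. The median of the core genes was −0.11 against −0.00033 for all genes. Again 0 passed (0.227% of all genes did), while 6 had an unadjusted p under 0.05, a share of the 76 near that of all genes (6.79%). The groups were separate with the double mutant lower for 10 of 76 core genes, namely Rpl10a, Rpl31, Rpl32, Rpl35, Rpl37, Rpl5, Rps20, Rps24, Rps3a1, and Rps9, where 6.87% of all genes were. Rpl35 was at 454, 393, and 465 normalized counts in WT and at 343, 285, and 366 in the double mutant. All 3 double-mutant libraries lay below the WT libraries, and the log2 fold change was −0.39 (standard error 0.14, adjusted p = 0.613 by edgeR). Rpl10a (−0.51, adjusted p = 0.661 by edgeR) and Rpl31 (−0.37, adjusted p = 0.709 by edgeR) followed. Rps28, a small-subunit gene on chromosome 17, had the lowest p among positive changes, with 484, 499, and 709.8 in WT and 749, 669, and 879 in the double mutant. These groups overlapped, and the log2 fold change was 0.45 (standard error 0.16, adjusted p = 0.628 by edgeR). Rpl19 (0.67) and Rplp2 (0.13) came next among positive changes. For 49 of the 76 the 95% interval lay within 1.5-fold (8140 of all 15825 genes).

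The remaining pair with and without the transgene, Asxl1Y588XTg Kdm6bΔ/+ against Kdm6bΔ/+, was added after the values had been seen. Here 56 of 76 core genes and 7869 of all 15825 genes tested were below 0. The median of the core genes was −0.08 against 0.0018 for all genes, and 0 core genes passed (0.101% of all genes did). An unadjusted p under 0.05 was found for 6, all lower (12.2% of all genes in either direction, 897 of them lower). The groups were separate with the double mutant lower for 11 (9.57% of all genes). Rps9 had the lowest p (−0.20, standard error 0.06, adjusted p = 0.272 by edgeR), before Rpl32 (−0.20, adjusted p = 0.309 by edgeR) and Rpl35 (−0.30, adjusted p = 0.326 by edgeR). Among positive changes the lowest p-values were those of Rps28 (0.21), Rpl14 (0.09), and Rpl35a (0.10). The largest change was that of Rpl38 (−0.87, standard error 0.35), a gene with a mean of only 27.7 normalized counts in WT. For 60 of the 76 the 95% interval lay within 1.5-fold (8866 of all 15825 genes). Rps9 and Rpl35 had negative log2 fold changes in the double mutant against each of the other 3 genotypes, but none passed, and these comparisons share the same double-mutant libraries.

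The interaction, which is the effect of the deletion on the transgenic background minus its effect on the WT background, passed for 0 of 76 core genes and 2 of all genes (0.0126%). Its median was −0.06, against −0.02 for all genes, and between −0.11 (without WT replicate 3) and −0.0092 (without double-mutant replicate 2) with a library left out. The 1 core gene with an unadjusted p under 0.05 was Rps9 (−0.22, standard error 0.10, adjusted p = 0.713 by edgeR), where 6.87% of all genes had one. Rpsa (−0.28) and Rpl32 (−0.18) came next among negative values, and Rpl5 (0.58), Rps23 (0.47), and Rpl9 (0.27) had the lowest p-values among positive ones. For 42 of 76 the interval lay within 1.5-fold (6556 of all 15825 genes), fewer than in the pairwise comparisons.

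**Figure D3:**
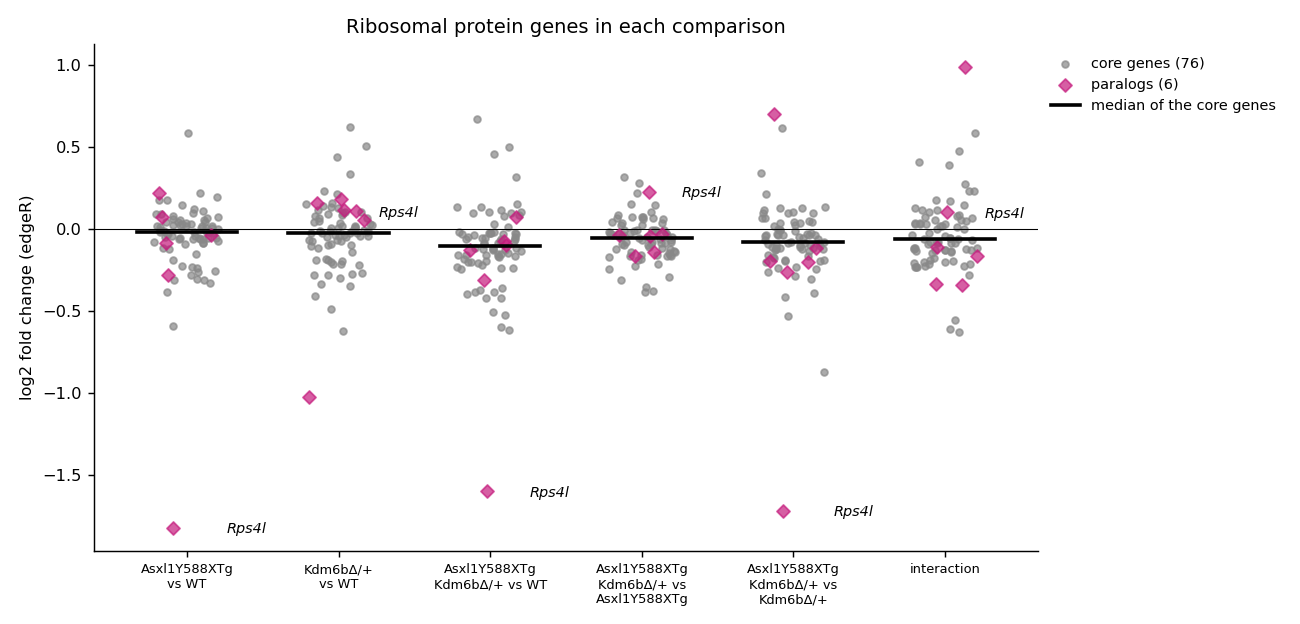
Log2 fold change from edgeR of the 76 core genes (gray) and 6 paralogs (magenta) that were tested, in each of 5 comparisons and in the interaction, with the median of the core genes as a black line. The medians lie between −0.11 and −0.02, and Rps4l lies at −1.82, −1.60, and −1.72 where a transgenic genotype is set against one without the transgene.

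None of the core genes known from disease passed. Of 12 genes whose human counterparts are known from Diamond-Blackfan anemia or blood cancers (among them Rps19, Rps24, Rps26, Rps7, Rps10, Rps14, Rpl5, Rpl11, Rpl35a, Rpl22, and Rpl10), 9 had a log2 fold change above 0 in Asxl1Y588XTg against WT and 6 in Asxl1Y588XTg Kdm6bΔ/+ against WT, with medians of 0.04 and −0.02. The lowest adjusted p among them was 0.329 by edgeR over the 5 comparisons and the interaction. Rps19, the gene most often mutated in Diamond-Blackfan anemia, was at 2768 ± 220 normalized counts in WT, and its log2 fold changes against WT were −0.10 in Kdm6bΔ/+, −0.05 in Asxl1Y588XTg, and −0.05 in the double mutant. Rps14, a gene in the region lost in the 5q- syndrome, gave −0.05, 0.02, and −0.14. The genes Rplp0, Rpl13a, and Rps18, often used as reference genes in quantitative PCR, gave −0.04, −0.19, and −0.27 in Kdm6bΔ/+, −0.06, −0.23, and 0.0023 in Asxl1Y588XTg, and −0.08, −0.24, and −0.38 in the double mutant, and none of these passed. The values of Rps18 rested on single libraries, being −0.01 in Kdm6bΔ/+ without its replicate 2 and −0.15 in the double mutant without its replicate 1. Of the ribosomal genes whose names do not follow the pattern, Rack1 was at 20030 ± 2013 normalized counts in WT, whereas Fau, which encodes a fusion with a ubiquitin-like sequence, was at 31.1 ± 9.47, and neither passed in any comparison.

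Rps4l was the 1 member tested that passed. It lies on chromosome 6 of mm10 from 148354656 to 148355598 on the forward strand within Tmtc1, and GENCODE lists it as a transcribed processed pseudogene of a single exon. Rps4x, the gene it resembles, which encodes a small-subunit protein, lies on the X chromosome from 102184941 to 102189394. The 789 bases of Rps4l align without gaps to the 789 coding bases of Rps4x with 161 differences (79.6% identity), and 0 of 740 windows of 50 bases are identical. The first 150 bases of both, from the GENCODE transcripts, show why reads of this length can tell them apart, with the 31 differing bases of each in capitals.
Rps4x: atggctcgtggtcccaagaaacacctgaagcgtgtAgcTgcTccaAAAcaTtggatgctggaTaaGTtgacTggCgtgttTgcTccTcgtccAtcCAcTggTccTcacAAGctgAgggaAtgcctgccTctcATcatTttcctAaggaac
Rps4l: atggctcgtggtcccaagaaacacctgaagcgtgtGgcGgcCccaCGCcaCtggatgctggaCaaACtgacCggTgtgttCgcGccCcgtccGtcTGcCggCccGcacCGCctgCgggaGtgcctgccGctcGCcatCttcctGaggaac
Of its windows, 82.0% were found in no transcript of another gene, and the rest in 1 pseudogene.

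The raw counts of Rps4l were 133, 145, and 135 in WT and 102, 186, and 138 in Kdm6bΔ/+, but 24, 51, and 44 in Asxl1Y588XTg and 56, 46, and 50 in Asxl1Y588XTg Kdm6bΔ/+. Each of the 6 transgenic libraries lay below each of the 6 others. Relative to WT, the log2 fold change was −1.82 in Asxl1Y588XTg (standard error 0.31, adjusted p = 0.0174 by edgeR's quasi-likelihood test, where 1.64% of all genes passed) and −1.60 in Asxl1Y588XTg Kdm6bΔ/+ (standard error 0.23, adjusted p = 0.0202, where 0.227% passed). Relative to Kdm6bΔ/+, it was −1.72 in the double mutant (standard error 0.21, adjusted p = 0.00625 by edgeR). No change with the deletion was detected. The log2 fold change was 0.11 in Kdm6bΔ/+ against WT, with a 95% interval from −0.36 to 0.58, and 0.22 in the double mutant against Asxl1Y588XTg, with an interval from −0.46 to 0.91. As the 3 significant comparisons share libraries, they are not independent of each other.

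Rps4x had 3474 to 3809 normalized counts in WT and 3065 to 3753 in the transgenic libraries, so these ranges overlapped. Of the coding windows of Rps4x, 9.9% were unique, against 82.0% of the windows of Rps4l, so a ratio of their counts compares genes that differ in this respect. Rps4l amounted to 3.91% ± 0.612 of Rps4x in WT and 4.23% ± 0.873 in Kdm6bΔ/+, but to 1.15% ± 0.438 in Asxl1Y588XTg and 1.42% ± 0.277 in the double mutant. The difference in Rps4l was present among libraries without Y-linked transcripts. There the 4 non-transgenic libraries had 122 to 185 normalized counts and the 2 transgenic ones 24.2 and 44.6. It was also present among libraries with them, with 128 and 143 in 2 non-transgenic and 41.4 to 51.6 in 4 transgenic libraries. A fit of all 12 libraries with a term for Y-linked transcripts gave a log2 fold change of −1.62 for the double mutant against WT (standard error 0.39). The unadjusted p was 0.00089 by edgeR, but the adjusted p was 0.877, against 0.0213 without the term. No WT library and every double-mutant library had Y-linked transcripts, so the term and this pair can be separated only through the other genotypes. For the double mutant against Kdm6bΔ/+ the same fit gave −1.72 with an adjusted p of 0.173 by edgeR, and for Asxl1Y588XTg against WT −1.82 with 0.00475. Leaving out single libraries kept the log2 fold change between −2.03 and −1.56 in Asxl1Y588XTg against WT, and the adjusted p by edgeR rose to 0.0906 without WT replicate 3 and to 0.0635 without Asxl1Y588XTg replicate 3. In the double mutant against WT it rose to between 0.0968 and 0.136 without WT replicate 3 or any 1 of the double-mutant libraries, and against Kdm6bΔ/+ to 0.0547 without double-mutant replicate 1.

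Other genes near Rps4l did not pass. Of 14 further genes tested within 1 Mb on either side, 0 passed in any of the 5 comparisons by edgeR. The host gene Tmtc1 had a log2 fold change of 0.71 (standard error 0.76) in Asxl1Y588XTg against WT and 1.38 (standard error 0.69) in the double mutant against WT, opposite in sign to Rps4l. The libraries with the transgene also had more counts on megakaryocyte markers. The summed count of the 6 markers, none of them at 0 in a genotype, was 1380 to 2646 in WT and 1480 to 1808 in Kdm6bΔ/+, but 4376 to 11840 in Asxl1Y588XTg and 2834 to 4342 in the double mutant, and their part in the level of Rps4l was not tested. Whether reads were counted by strand is not given in the sources used here, so reads from Tmtc1 pre-mRNA and from Rps4l may not be told apart.

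**Figure D4:**
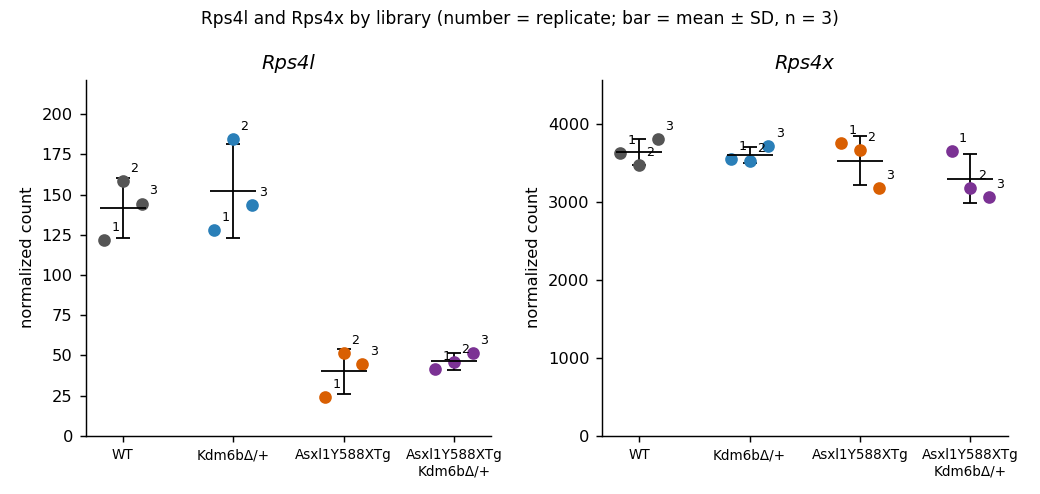
Normalized counts of Rps4l (left) and Rps4x (right) in each library, by genotype, with points labelled by replicate number and bars for the mean ± SD (n = 3). For Rps4l the 6 transgenic libraries lie between 24.2 and 51.6 and the 6 others between 122 and 185, whereas the genotypes overlap for Rps4x.

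None of the other 5 paralogs tested passed. Rpl22l1, which can replace Rpl22 in the ribosome, was at 15.9% ± 1.201 of the count of Rpl22 in WT, 17.7% ± 1.22 in Kdm6bΔ/+, 17.2% ± 1.95 in Asxl1Y588XTg, and 16.6% ± 0.719 in the double mutant. Its log2 fold change against WT was 0.18, 0.22, and 0.07 in the same order of genotypes. Of the coding windows, 15.8% were unique in Rpl22l1 and 69.0% in Rpl22, so their ratio compares genes that differ in this respect. Rps27l, a p53 target, had 660.7% ± 236 of the count of Rps27 in WT. Rps27 had no unique coding window, and 51.7% of those of Rps27l were unique, so this ratio compares genes that differ in this respect. The log2 fold change of Rps27l was −0.17 in the double mutant against Asxl1Y588XTg (standard error 0.08, adjusted p = 0.371 by edgeR) and −0.26 against Kdm6bΔ/+ (standard error 0.08, adjusted p = 0.263 by edgeR).

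Rpl7l1 was at 1864, 1818, and 2235 normalized counts in WT and at 1905, 1878, and 1782 in the double mutant, a log2 fold change of −0.08 (standard error 0.09). In Kdm6bΔ/+ it was at 2229, 2134, and 2052, above every double-mutant library, and the log2 fold change of the double mutant against Kdm6bΔ/+ was −0.20 (standard error 0.07, adjusted p = 0.286 by edgeR). Rpl36al, a paralog of Rpl36a, had no unique coding window. Its coding windows were shared with 3 other genes, 2 of them pseudogenes, and 36.7% of the windows of its whole transcript were unique. Its log2 fold change lay between −0.19 and 0.05 in the 5 comparisons. Rpl3l, the form of Rpl3 known from striated muscle, had 6 to 35 raw counts per library and a log2 fold change of −1.03 in Kdm6bΔ/+ against WT with a 95% interval from −2.55 to 0.49. The remaining 7, Rpl10l, Rpl32l, Rpl39l, Rpl6l, Rps12l1, Rps3a2, and Rps3a3, were too low to be tested. Of these, GENCODE lists Rpl32l, Rpl6l, Rps12l1, Rps3a2, and Rps3a3 as processed pseudogenes. Rpl39l, the testis form of Rpl39, had 26 raw counts in Asxl1Y588XTg replicate 3, 14 in Kdm6bΔ/+ replicate 2, 12 in Asxl1Y588XTg Kdm6bΔ/+ replicate 1, and at most 2 in each of the other 9 libraries. Rps12l1 had 0 counts in all 12 libraries, but its share of unique windows was 0%, so reads from it may not be told apart from those of other genes.

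Within a genotype, well counted core genes agreed closely between mice, with exceptions. Of the 46 core genes with a mean of at least 500 normalized counts, the median SD within a genotype was 0.11 on the log2 scale. The 4 genes with the largest spread among these were Rps2 (0.48), Rps18 (0.39), Rpl30 (0.31), and Rps28 (0.28), and they are named after their values were seen. Rps2, Rps18, and Rps28 lie on chromosome 17 of mm10, at 24718116 to 24721929, 33951999 to 33956001, and 33819027 to 33824562. Rps2 was at 3804, 3040, and 3923 normalized counts in WT, 3697, 1925, and 3818 in Kdm6bΔ/+, 3473, 1987, and 3386 in Asxl1Y588XTg, and 1782, 3566, and 1709 in the double mutant. Thus 8 libraries lay at 3040 or more and 4 at 1987 or less, and the 4 low ones came from 3 genotypes. Its log2 fold change in the double mutant against WT was −0.60, and without double-mutant replicate 2 it was −1.02, with an adjusted p of 0.0169 by edgeR.

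Genes elsewhere in the genome were high in just these 4 libraries. Among all genes with a mean of at least 20 normalized counts, Hmga1b and Atp6v0c-ps2 had the profiles most opposed to that of Rps2 over the 12 libraries. Atp6v0c-ps2, a processed pseudogene on chromosome 6, had 159 normalized counts in Kdm6bΔ/+ replicate 2, 212 in Asxl1Y588XTg replicate 2, and 173 and 176 in double-mutant replicates 1 and 3, but 1.001 to 7.65 in the other 8 libraries. Hmga1b on chromosome 11 had 197, 156, 208, and 249.9 in the same libraries and 6.04 to 21.98 in the others, and Rnps1-ps had 113, 81.6, 82.0, and 99.1 against 0 to 9.16. The genes of which these carry the name, Atp6v0c (24163866 to 24169702), Rnps1 (24414565 to 24425901), and Hmga1 (27556497 to 27563674), lie on chromosome 17, as does Rps2, and Hmga1 and Rnps1 were among the 5 profiles most like that of Rps2. Hmga1 was at 433 to 467 in the 4 libraries and at 570.5 to 845 in the other 8, and Atp6v0c at 443 to 609 against 647 to 1172. Whether the values of Rps2 and these genes reflect where reads were placed or how much RNA was present was not tested, and the fold changes of Rps2 carry that limit.

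Rps18 did not follow the same libraries. It was at 1548, 1221, and 1450 in WT, 1475, 701, and 1319 in Kdm6bΔ/+, 1545, 1454, and 1237 in Asxl1Y588XTg, and 706, 1262, and 1243 in the double mutant, so only Kdm6bΔ/+ replicate 2 and double-mutant replicate 1 were low. The profiles most opposed to it were those of H2-Bl and Gm10499, also on chromosome 17. In these 2 libraries H2-Bl was at 111 and 116 and Gm10499 at 161 and 117, and in the other 10 both were at 5.04 or less, and their relation to Rps18 was not tested. Rps28 was highest in the 4 libraries in which Rps2 was low (749 to 879, against 484 to 709.8 elsewhere). Double-mutant replicates 1 and 3 are among these 4 and no WT library is, so the fold changes of Rps28 in the double mutant carry the limit given for Rps2. Rpl30, on chromosome 15, was at 511 in Asxl1Y588XTg replicate 1 and 474 in double-mutant replicate 3 and between 714 and 954 in the other 10 libraries. In contrast, Rpl8, the core gene with the highest level per kilobase, ranged from 19800 to 24650 over the 12 libraries.

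**Figure D5:**
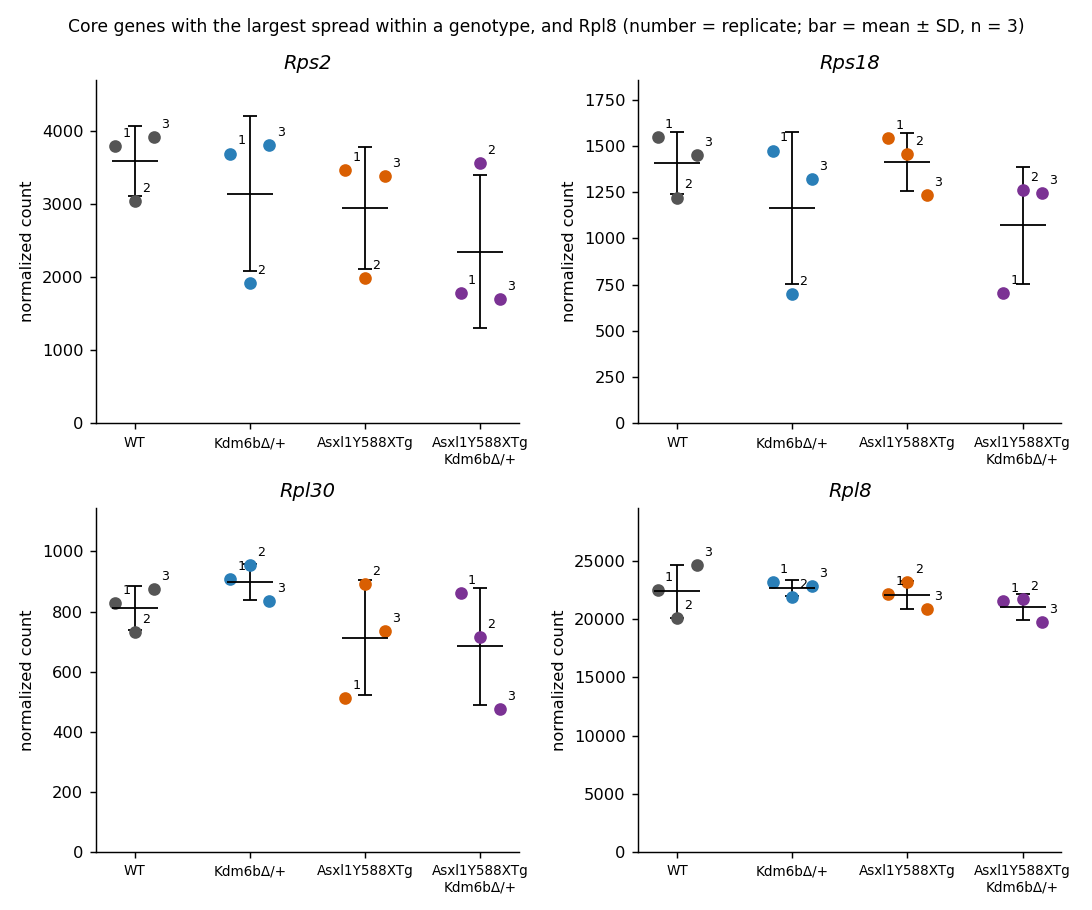
Normalized counts of Rps2, Rps18, Rpl30, and Rpl8 for each library, labelled by replicate number, with bars for the mean ± SD (n = 3). Among core genes with a mean of at least 500 normalized counts, the first 3 had the largest spread within a genotype. Rps2 lies at 1709 to 1987 in 4 libraries and at 3040 to 3923 in 8, and Rpl8 stays between 19800 and 24650.

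The machinery that builds and uses ribosomes was measured beside its proteins, by lists of known members. Of 73 ribosome biogenesis genes, 39 translation factors, and 19 RNA polymerase I genes, all of them tested, 0 passed in any of the 5 comparisons or in the interaction. The median log2 fold change of the biogenesis genes was −0.03 in Asxl1Y588XTg against WT, 0.05 in Kdm6bΔ/+ against WT, −0.13 in the double mutant against WT, −0.08 against Asxl1Y588XTg, and −0.16 against Kdm6bΔ/+. In the last of these, 23 of the 73 had an unadjusted p under 0.05, all lower. Of all 15825 genes, 12.2% had one in either direction, 897 of them lower. Of 16 growth control genes, Mycn, a regulator of ribosome production, rose from 97.7 ± 38.8 normalized counts in WT to 389 ± 39.1 in Asxl1Y588XTg (log2 fold change 1.99, standard error 0.26, adjusted p = 0.00545 by edgeR). Mycn fell by 1.47 on the log2 scale in the double mutant against Asxl1Y588XTg (adjusted p = 0.00874 by edgeR), whereas Myc, at 3532 ± 606 in WT, did not pass. Of 24 p53 target genes, 2 passed in the double mutant against Asxl1Y588XTg, where 2.09% of all genes did. Ddit4 (−0.72, adjusted p = 0.0261 by edgeR) and Plk2 (−0.76, adjusted p = 0.0474 by edgeR) fell, and 0 passed in the other comparisons.

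Markers of LK cells and of other cells differed between some genotypes. All 5 megakaryocyte markers tested had an unadjusted p under 0.05 and were higher in the double mutant than in Kdm6bΔ/+, with a median log2 fold change of 1.44. Of all 15825 genes, 12.2% had such a p in either direction, 1035 of them higher. Against Kdm6bΔ/+, 3 of 7 LK markers also had such a p and were lower in the double mutant. In the double mutant against WT, 3 of the 5 and 4 of 6 endothelial and stromal markers had such a p and were higher. There 5 of 8 erythroid, 3 of 7 LK, and 2 of 6 T and NK cell markers had one and were lower. Of all 15825 genes, 6.79% had such a p in that comparison, 591 of them higher and 484 lower. Those that passed after adjustment are named here. Gata2 of the LK list rose by 0.73 in Asxl1Y588XTg against WT (adjusted p = 0.0276 by edgeR) and fell by 1.02 in the double mutant against Asxl1Y588XTg (adjusted p = 0.00686 by edgeR). In the double mutant against WT, the erythroid genes Alas2 (−1.49, adjusted p = 0.0174 by edgeR) and Hbb-bt (−1.11, adjusted p = 0.00763 by edgeR) fell and the platelet gene Ppbp (2.49, adjusted p = 0.0241 by edgeR) rose, and Itga2b rose by 0.68 against Kdm6bΔ/+ (adjusted p = 0.0184 by edgeR). The summed count of 8 erythroid markers was 7237 to 10470 in WT, 4332 to 9492 in Kdm6bΔ/+, 5395 to 12530 in Asxl1Y588XTg, and 4616 to 5732 in the double mutant, where most core ribosomal protein genes also had a negative log2 fold change, and the part of these cells in that was not tested. In the lists for lymphocytes, neutrophils, macrophages, mast cells, and stroma or vessels, 0 genes passed in any of the 5 comparisons or in the interaction.

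Promoter sequence features were read from RefSeq for GRCm38.p6, from 250 bases before to 50 bases after the annotated start. Of the 77 core genes, 57 had a promoter in that table, with 67 promoters in all. The letters CCGGAAG, or CTTCCGG as its reverse complement, occurred in 37.3% of these windows and in 8.9% of all 32851 windows. A C followed by further pyrimidines, at least 5 in a row on the sense strand and beginning within 10 bases of the start, the form known from mRNAs whose translation depends on mTOR, occurred in 53.7% of the core promoters and 30.7% of all. The letters TATAA between 40 and 15 bases before the start, read on the sense strand, occurred in 6.0% and 3.5%. Motif matches are a description of these windows and not sites of binding.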

How the data were processed

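RNA from LK cells of 12 mice, 3 per genotype, was sequenced by the authors. Per the labels and the paper's methods, reads of 50 bases were trimmed with Trimmomatic, aligned to mm10 with STAR, and counted on genes with HTSeq. Library kit and sequencer differ between the sources: NEB Ultra and NextSeq in the labels, a stranded KAPA kit with removal of ribosomal RNA and HiSeq in the methods. The annotation, strand setting, and handling of reads with several matches are not given in the sources used here. The deposited values are raw counts per gene, without normalization, and 0 further per-sample columns were present.

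Of 55291 genes, 22587 had no count, and filterByExpr with the 4 genotypes as groups kept 15825. Counts were scaled by TMM, and a normalized count is the raw count scaled to the mean effective size of the 12 libraries. Pairs of genotypes were compared with edgeR 4.0.16 in R 4.3.3 (glmQLFit with robust = TRUE, glmQLFTest) on the 6 libraries of the pair and the interaction on all 12, with p-values adjusted by Benjamini-Hochberg over the 15825 genes. Passing means an adjusted p under 0.05, and a called gene also has a fold above 1.5. Standard errors were derived from the F statistic, and 95% intervals use the t distribution with the degrees of freedom of the fit. Scripts were tested on simulated counts. An exact permutation test of 3 against 3 libraries cannot give a p below 0.1. Replicates are separate mice. Libraries were not treated as paired, since deviations from the genotype means had a Pearson r of −0.12 to 0.08 over 18 pairs of the same number and −0.14 to 0.18 over 36 others. Counts of core genes differed between replicates by more than counting noise, with a median chi-square per gene of 1.90 to 13.9.

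Gene lengths, positions, and sequences come from GENCODE vM21, which matched 53292 of the 55291 rows and all 90 members, from the shortest transcript with the principal coding sequence. A window of 50 bases counts as unique if no transcript of another gene holds it on either strand. Named are all paralogs, in each comparison the 3 core genes with the lowest p in each direction, the 5 highest and 5 lowest core genes per kilobase, disease and reference genes, and list genes that were called; Rps2, Rpl30, Rps28 and the genes beside them were named after their values were seen. Some genes that the rule names are not reported here. The members and lists were chosen with earlier results of these data known. Alternatives were DESeq2 1.42.0, RLE scaling, TMM without the members, other filters, all 4 genotypes in 1 fit, a replicate block, a term for Y-linked transcripts (over 100 counts on 4 genes), length and GC offsets, and single libraries left out. Protein sequences and a genome sequence were not used here.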

Additional observations from a re-analysis of the deposited data

How the results depend on the processing

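Core genes passing the threshold stayed at 0 in both directions in all 5 comparisons and the interaction with DESeq2, RLE scaling, TMM without the members, the replicate block, a mean count of at least 50, all 4 genotypes in 1 fit, the Y-linked term, and length and GC offsets. Without a filter, 1 core gene was higher in Asxl1Y588XTg Kdm6bΔ/+ than in WT (Rps28, log2 fold change 0.46, adjusted p = 0.0367 by edgeR) and 1 was lower than in Kdm6bΔ/+ (Rpl30, −0.38, adjusted p = 0.034 by edgeR). With single libraries left out, the count of core genes lower in Asxl1Y588XTg Kdm6bΔ/+ against WT was between 0 and 1, the 1 being Rps2 without replicate 2 of the double mutant. The cause of these was not tested. In DESeq2, 0 core genes passed and 0 to 7 per comparison had an unadjusted p under 0.05. The share of all genes with such a p in DESeq2 is not given here, so that count cannot be read as many or few.

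The medians of the core genes ranged from −0.12 to −0.0019 over the settings other than left-out libraries, with no change of sign. With a library left out they ranged from −0.07 to 0.02 in Asxl1Y588XTg and from −0.07 to 0.02 in Kdm6bΔ/+ against WT, so the sign of these depends on single libraries, from −0.15 to −0.07 in the double mutant against WT, from −0.11 to −0.02 against Asxl1Y588XTg, and from −0.12 to −0.05 against Kdm6bΔ/+, and the interaction ranged from −0.11 to −0.0092. Without mitochondrial genes and the 10 most abundant genes in the denominator, the share on core genes was 1.32% in WT, 1.30% in Kdm6bΔ/+, 1.33% in Asxl1Y588XTg, and 1.25% in the double mutant, by construction of a smaller denominator. For Rps4l, the replicate block gave −1.87 (adjusted p = 0.0452 by edgeR) in Asxl1Y588XTg against WT and −1.59 (adjusted p = 0.0106 by edgeR) in the double mutant against WT. The block changed the call of no member, and the libraries are not known to be paired. The comparison of the double mutant with Kdm6bΔ/+ and the medians over core genes with a unique coding window or with a mean of at least 500 normalized counts were chosen after seeing the data, and both of these medians were −0.07 in the double mutant against WT. With a library left out, the log2 fold change of Rps4l in the double mutant against Asxl1Y588XTg, which did not pass, ranged from −0.04 to 0.44. Of the 29 core genes without a unique coding window, 12 had a mean under 100 normalized counts, where counting error is larger, and no setting varied the depth.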
